A study of Zea mays with 2182 samples.

Results

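Alpha-tubulin pairs with beta-tubulin to form the dimers from which microtubules are built. In plant cells microtubules make up the spindle and the phragmoplast of dividing cells, and the cortical arrays that guide where cellulose is laid down as a cell elongates. Plants carry alpha-tubulin as a small family of genes with very similar proteins, so a count of transcripts by gene shows which family members supply the pool. In the anther, the male organ of the flower, wall cells divide and then expand while the inner cells go through meiosis and become pollen.

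The alpha-tubulin genes were taken as the rows of the count table whose name begins with TUBA and a digit, which gave 4 of 22173 rows: TUBA1, TUBA3, TUBA5 and TUBA6. The rule reads row names only. The cells came from anthers of the fertile maize inbred line W23, taken at 11 anther lengths (0.5 to 3.0 mm, every 0.25 mm), with no treatment and no second genotype. Plants were grown in a greenhouse, anthers were fixed and digested, and single cells were dispensed with a Hana sorter. Transcripts were counted by CEL-Seq2, in which a unique molecular identifier (UMI) marks every captured 3' transcript end. Cells below 500 UMIs were left out, which kept 1658 of 2182. The 3.0 mm sum held the fewest cells, 89. Summed depth per length ran from 132940 to 1496508 UMIs.

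No cell could be tied to a plant, so the cells of a length were added up to 1 sample. The p-values below therefore set a slope or difference against the scatter of lengths around the fit, which includes technical scatter. The fits share the estimate of this scatter between genes, so a p-value does not rest on the scatter of that row alone. The first word of a cell's title is called its set, and a set, number and length together a pool; the 45 pools with at least 8 analysed cells show the spread inside a length.

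The 4 rows held 9251 UMIs in the analysed cells, 0.236% of all UMIs. TUBA1 gave 4012 of them, a share of 43.4% (exact binomial 95% interval 42.4 to 44.4%), and TUBA3 gave 3459, or 37.4% (36.4 to 38.4%). TUBA5 and TUBA6 made up 9.84% (9.24 to 10.5%) and 9.40%. TUBA1 and TUBA3 were therefore the main family members by captured 3' ends. These intervals, like all intervals on counts below, cover counting error only. The naming table places TUBA1 beside a gene TUBA2 and gives both the same older gene ID; TUBA2 has no row under that name, and neither has TUBA4. How reads shared by such close copies were assigned was not tested, so the TUBA1 values may include or lack reads of its neighbour.

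Most cells carried alpha-tubulin transcripts. A UMI of at least 1 of the 4 rows was seen in 86.9% of the analysed cells, and in 62.9% (60.5 to 65.2%) after every cell was thinned to 500 UMIs. At that equal depth TUBA1 was seen in 38.2% of cells, TUBA3 in 35.0%, TUBA5 in 12.1% and TUBA6 in 10.1%. A single alpha-tubulin row was seen in 36.6% of the thinned cells and all 4 rows in 8 cells. The variance of TUBA1 UMIs over thinned cells was 1.19 times its mean, against 1.52 for TUBA3, so TUBA3 was the more unevenly spread of the 2 main rows.

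The first comparison asked whether alpha-tubulin transcripts change as the anther lengthens. Levels are given as UMIs of a row in 1000000 summed UMIs (CPM). TUBA1 stood at 1395 CPM at 0.5 mm, 1310 at 0.75 mm, 1144 at 1.0 mm, 1394 at 1.25 mm, 1177 at 1.5 mm and 1392 at 1.75 mm. It then stood at 886 CPM at 2.0 mm, 990.5 at 2.25 mm, 582.5 at 2.5 mm, 956 at 2.75 mm and 684.5 at 3.0 mm. The 5 lengths from 2.0 mm were all below the 6 shorter lengths on this scale, which takes all cells of a length together. Most UMIs at 2.0 mm, 952147 of 1496508, came from set Pilot, which held no other length. TUBA1 stood at 750.9 CPM in set Pilot and 779.3 in set MiSeq, against 951 in set 1.4.21 and 1240 in set 7.21. The level in set 7.21 was above the 1.0 and 1.5 mm levels, so the split was not clean by set.

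TUBA3 followed a like course. Its 6 levels were 1229, 1067, 1221, 1347, 1451 and 1400.4 CPM from 0.5 to 1.75 mm in order of length. From 2.0 to 3.0 mm they were 618, 848, 445, 1016 and 557 CPM, again without overlap with the shorter lengths. TUBA5, at a lower level, spanned 245.3 to 449 CPM up to 1.75 mm and 150.4 to 225.3 CPM from 2.0 mm. TUBA6 did not share this split: both its highest length, 3.0 mm with 315.9 CPM, and its lowest, 2.5 mm with 129.4 CPM, were among the longer ones.

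Added together, the 4 rows lay between 2988 CPM (0.75 mm) and 3452 CPM (1.25 mm) up to 1.75 mm. From 2.0 mm the sum stood at 1878, 2289, 1351, 2453 and 1708 CPM in order of length. The lowest length was 2.5 mm, where its 4 pools ran from 1251 to 1384 CPM, the narrowest spread of any length. At 2.0 mm the 6 pools ran from 920 to 2928 CPM and at 3.0 mm the 4 pools from 762 to 2982 CPM. Pools ran from 1523.5 to 3059 CPM at 2.25 mm and from 2220 to 2636 CPM at 2.75 mm. The lowest pool of the shorter lengths stood at 1943 CPM (0.75 mm). Single pools at every length from 2.0 mm except 2.5 mm thus overlap those of short anthers. The border at 2.0 mm was chosen after these levels were seen and is given without a test.

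The kinds of cells changed over the same lengths. Cells rich in RBCS and CAB1 transcripts, described below as photosynthetic cells, numbered 0 at 0.5 mm and 35 of 89 at 3.0 mm, and the photosystem I gene PSAH rose with a slope of 2.32 log2 units for each mm (SE 0.26, edgeR adjusted p = 2e-05). In the remaining cells alone, which are neither photosynthetic nor C2 cells, the split of single rows was not clean. TUBA1 stood there at 1146.7 to 1482 CPM up to 1.75 mm and at 695.8 to 1271 CPM from 2.0 mm, which overlap, and TUBA3 and TUBA5 overlapped too. The sum over the 4 rows did not overlap in these cells, with 3029 to 3413 CPM at the shorter and 1459.8 to 2804 CPM at the longer lengths. How far the mix of cells enters the levels by length was not tested.

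**Figure D1:**
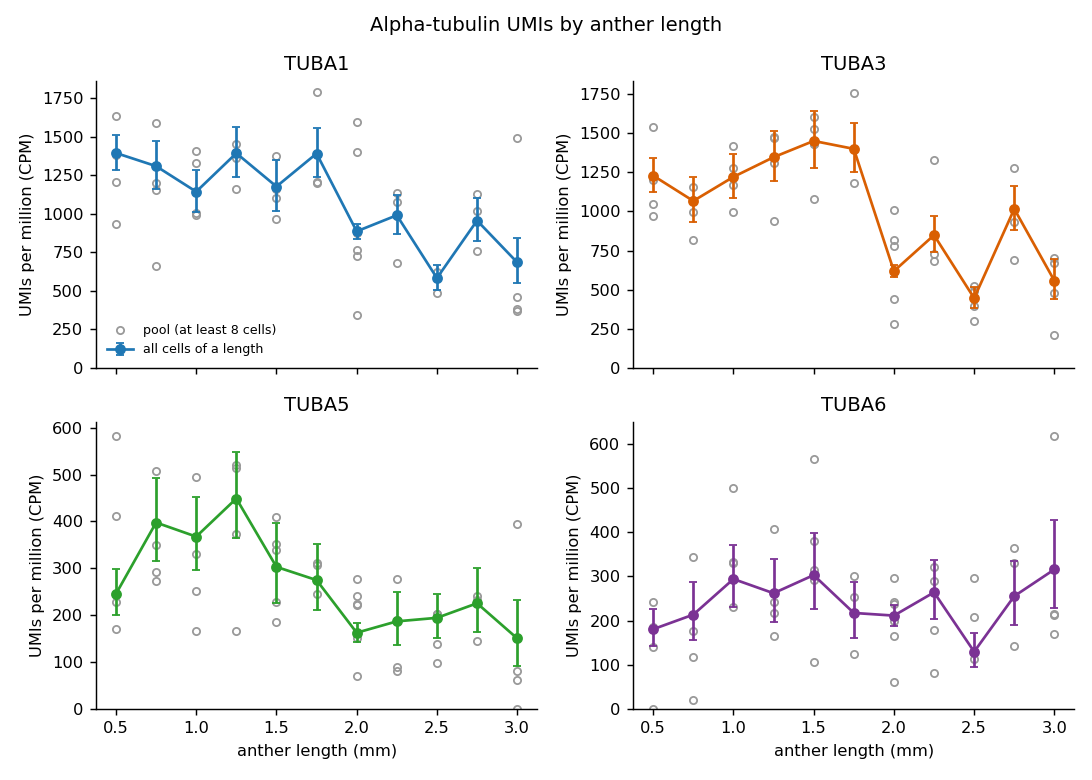
CPM (linear axis from 0) of each alpha-tubulin row against anther length in mm. Filled points are the sum over all analysed cells of a length with exact Poisson 95% intervals, and open circles are pools of at least 8 cells. The sums of TUBA1, TUBA3 and TUBA5 sit lower from 2.0 mm than at any shorter length, while TUBA6 shows no such step. Most UMIs at 2.0 mm came from set Pilot, which held no other length.

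The same step was seen inside the sets that held both short and long anthers. In set 8.18.21 the sum over the 4 rows was 3020.4 to 3577 CPM at 5 lengths up to 1.75 mm and 1338 to 2539 CPM at 4 lengths from 2.0 mm. Set 3.29.22 gave 3154 to 3486 CPM at 2 shorter lengths and 1523.5 to 2408 CPM at 3 longer ones. In set 1.4.21 the margin was small, 2352 CPM being its lowest short length and 2338 CPM its highest long one. Single rows were less separated than the sum. In set 1.4.21 all 4 rows overlapped between short and long anthers, and in sets 8.18.21 and 3.29.22 TUBA5 and TUBA6 did.

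A straight line through the 11 lengths did not give a call for any alpha-tubulin row. Slopes were fitted with edgeR's quasi-likelihood F-test on the summed counts, with TMM factors that set each length against the bulk of genes, and p-values were adjusted by Benjamini-Hochberg over all 5537 genes tested. For TUBA1 the fitted slope was -0.17 log2 units for each mm (SE 0.12, adjusted p = 0.32). TUBA3 had -0.21 (SE 0.16, adjusted p = 0.34) and TUBA5 had -0.25 (SE 0.14, adjusted p = 0.20). TUBA6 had a slope of the other sign, 0.29 (SE 0.14, adjusted p = 0.14). None of the 4 rows was called, against 30.2% of all genes tested, and the median slope was -0.19 over the 4 rows and 0.01 over all genes.

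The scale matters for this result. With library size alone as the scale, the median slope of all genes was -0.23. On that scale TUBA1 had a slope of -0.41 (SE 0.13, adjusted p = 0.023) and TUBA5 of -0.51 (adjusted p = 0.018), both called, beside 36.4% of all genes, and 24.3% of those calls were upward against 53.0% with TMM factors. Relative to the median gene, the slopes of TUBA1 and TUBA5 were -0.18 and -0.27 by library size, close to the -0.18 and -0.26 with TMM factors. TMM-scaled levels of TUBA1 were 1257 to 1660 CPM of the tested genes up to 1.75 mm and 876 to 1321 from 2.0 mm, so that the groups of lengths overlapped. Plain CPM give a share of all UMIs, and the lower levels from 2.0 mm were seen on that scale.

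A squared term, which asks whether middle lengths stand apart, was called for none of the 4 rows, for which the unadjusted p was under 0.05 in 0 of 4 and the background was 0.846% of 7332 genes tested with edgeR.

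The balance within the family moved by some percentage points between lengths. TUBA1 made up 36.4% of alpha-tubulin UMIs (exact binomial 95% interval 32.4 to 40.6%) at 1.5 mm, its lowest, and 47.2% (45.3 to 49.1%) at 2.0 mm, its highest. TUBA5 ran from 8.04% (6.61 to 9.68%) at 0.5 mm to 14.4% (11.4 to 17.8%) at 2.5 mm, with neither row in order of length. TUBA6 made up 5.92% of alpha-tubulin UMIs at 0.5 mm and 18.5% at 3.0 mm, with 6.61 to 11.5% at the lengths between. The share of TUBA3 in the UMIs of TUBA1 plus TUBA3 ran from 41.1% at 2.0 mm to 55.2% at 1.5 mm with no order along length. The high TUBA6 level in CPM at 3.0 mm rested on 1 pool, number 2 of set 3.29.22. TUBA6 stood at 619 CPM in it, against 169.3 to 215.3 CPM in the other 3 pools of that length. The high share did not rest on this pool. TUBA6 made up more than 11.5% of alpha-tubulin UMIs in each of the other 3 pools too, though on few UMIs. Without this pool, left out after the values were seen, the TUBA6 slope was 0.15 (adjusted p = 0.46) in place of 0.29, and that of TUBA1 was -0.30 (adjusted p = 0.11).

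Other cytoskeleton rows were set beside the alpha-tubulin rows. A list drawn up from symbols held TUBG2 (gamma-tubulin, which nucleates microtubules), the profilins PRO3, PRO4 and PRO5, the actin-depolymerizing factors ADF2 and ADF3, MAD2 (a spindle checkpoint protein) and ABP4, a symbol also used in maize for an auxin-binding protein. Of these 8 rows 5 passed the filter on low counts in the length trend. By edgeR 1 of these 5 was called, beside 30.2% of all genes called in either direction and 14.2% called downward. MAD2 fell with a slope of -1.04 (SE 0.33, adjusted p = 0.028), and the other 4 did not pass, among them PRO4 at -0.32 (adjusted p = 0.060) and ADF3 at 0.20 (adjusted p = 0.16). The median of the 5 was 0.01, equal to that of all genes. TUBG2 had 1 to 54 UMIs per class of cells and was not tested.

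A list of dividing-cell genes, by contrast, fell as a whole over the same lengths: HMGIY2, DMT105, ROA2, FEN1 and MAD2 were all called (5 of 5, median slope -1.31), beside 14.2% of all genes called downward. FEN1, a nuclease of DNA replication and repair, had a slope of -1.17 (SE 0.17, adjusted p = 0.00016). The alpha-tubulin slopes were thus between 0 and -0.25 for 3 rows where the dividing-cell rows were below -1. The dividing-cell list was chosen with earlier results of these data known, so its count of calls is a description and no independent evidence. No test was made of the difference between the lists.

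Across the 45 pools the 4 rows moved together to different degrees. Spearman's rho between pools was 0.63 for TUBA1 and TUBA3, 0.56 for TUBA1 and TUBA5 and 0.53 for TUBA3 and TUBA5. TUBA6 was the least tied, with 0.40 to TUBA1 and 0.25 to TUBA3. Among 67 rows with a symbol and a mean of at least 100 CPM, those most like the alpha-tubulin sum over the pools were PRO4 (rho 0.59), HMGIY2, an HMG-I/Y chromatin protein (0.56), and GAPC3, a cytosolic glyceraldehyde-3-phosphate dehydrogenase (0.54). The least alike were the plastid photosystem II genes psbA (-0.61), psbC (-0.58) and psbH (-0.55). Pools share depth, set and length, and these values are descriptions without a test.

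The second comparison placed alpha-tubulin in classes of cells. Photosynthetic cells were those in which RBCS, the small subunit of Rubisco, and CAB1, a chlorophyll-binding protein, together made up at least 0.5% of UMIs; they were 12.4% of the analysed cells. C2 cells were those in which C2, the chalcone synthase that begins flavonoid synthesis, made up at least 0.4%; they were 7.18%. The 1334 remaining cells met neither rule, and 0 cells met both. Markers that the rules did not use separated the photosynthetic cells: at 1.5 to 3.0 mm PSAH, a photosystem I subunit, stood at 921 CPM in them, 49.9 CPM in C2 cells and 82.2 CPM in remaining cells. Plastid-encoded rows were 5.61%, 1.67% and 2.67% of the UMIs of the 3 classes.

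Summed over 1.5 to 3.0 mm, photosynthetic cells held the least alpha-tubulin, although not at every length. In this sum TUBA1 stood at 467 CPM (Poisson 95% interval 401.9 to 539.5) in photosynthetic cells, 969 CPM (873 to 1073) in C2 cells and 982 CPM (939.5 to 1025) in remaining cells. TUBA3 stood at 556 CPM (485 to 634.5), 911 CPM (818 to 1012.5) and 761 CPM (724 to 799.8). TUBA5 stood at 91.4, 236.4 and 200.1 CPM and TUBA6 at 96.4, 307.3 and 226.2 CPM in the same order.

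Photosynthetic cells were lowest for each row in this sum, with intervals apart from both other classes. Single lengths went the other way: the sum over the 4 rows was 4401 CPM in photosynthetic and 3361 CPM in remaining cells at 1.25 mm, with overlapping Poisson intervals. At 1.5 mm it was 4669 CPM in photosynthetic, 3539 CPM in C2 and 3041.5 CPM in remaining cells. C2 and remaining cells had overlapping intervals for TUBA1 and TUBA5. For TUBA3 and TUBA6 the C2 cells had the higher level and intervals that did not overlap.

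At equal depth fewer photosynthetic cells carried an alpha-tubulin UMI. After thinning to 500 UMIs, 41.3% (34.2 to 48.6%) of photosynthetic cells had one (78 cells), against 72.5% (63.1 to 80.6%) of C2 cells (79 cells) and 58.5% (55.0 to 61.9%) of 817 remaining cells. Unthinned, the shares were 72.0%, 95.4% and 85.6%, with median depths of 1460, 1867 and 1313 UMIs. As a gauge of free RNA, PSAH was seen in 3.67% (1.01 to 9.13%) of thinned C2 cells, where it should be absent or rare. TUBA6 in photosynthetic cells, seen in 3.18% (1.17 to 6.78%), and TUBA5, with 4.23% (1.85 to 8.17%), could not be told from that gauge. Neither thinned share is therefore read as expression in those cells. Unthinned, TUBA6 was seen in 18.0% and TUBA5 in 14.3% of photosynthetic cells, against 10.1% of C2 cells for PSAH. How far free RNA enters these shares was not tested. A lower share of cells with a UMI and fewer molecules per cell cannot be told apart at this depth.

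**Figure D2:**
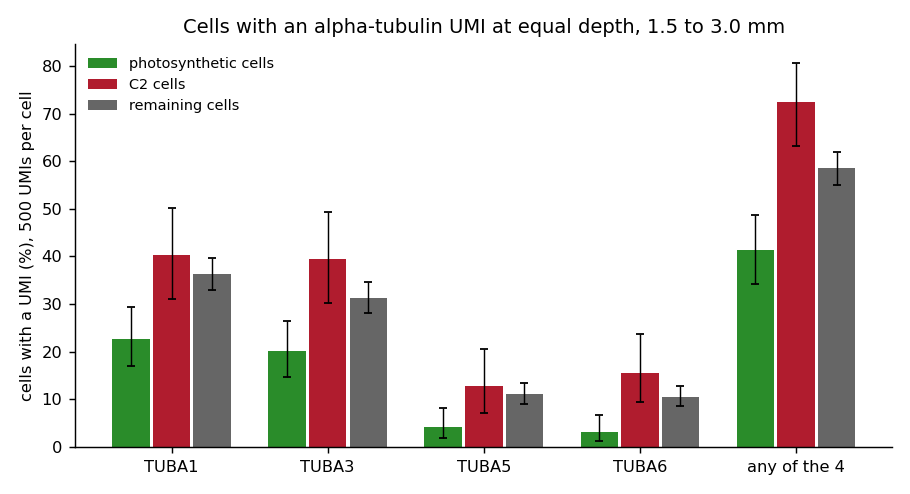
Percentage of cells at 1.5 to 3.0 mm with at least 1 UMI of each row, or of any of the 4, after thinning every cell to 500 UMIs; bars start at 0 and whiskers are exact binomial 95% intervals. Photosynthetic cells are lowest in every group of bars and C2 cells highest, with remaining cells between. With library size alone as the scale, the median gene was also lower in photosynthetic cells.

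Photosynthetic and C2 cells were then compared length by length at the 7 lengths from 1.5 to 3.0 mm that held at least 5 cells of each. TUBA6 in photosynthetic cells was 239.4, 42.5, 76.3, 111.9, 68.1, 109.4 and 154.4 CPM from 1.5 to 3.0 mm. In C2 cells it was 421.3, 311.2, 378.9, 508, 197.6, 348.1 and 126.8 CPM, higher at every length but 3.0 mm. These sums rest on few molecules, from 1 to 9 UMIs of TUBA6 per length in photosynthetic cells and 2 to 46 in C2 cells.

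For TUBA1 the photosynthetic cells stood at 1616, 638, 568 and 469.8 CPM from 1.5 to 2.25 mm and at 355.4 CPM or less from 2.5 mm, and the C2 cells at 927, 1401, 857, 1642.5, 725, 1631 and 412.1 CPM over the 7 lengths. For TUBA3 they stood at 2514, 1106, 526, 626, 291.9, 410.1 and 308.8 CPM, against 1938, 2334, 881, 1224, 601, 1118 and 856 CPM in C2 cells. Both rows were thus lower in photosynthetic cells at 6 of the 7 lengths, the exception being 1.5 mm. TUBA5 had the same count and the same exception. Some C2 sums rested on few cells: 8 at 1.5 mm, 5 at 1.75 mm, all of 1 set, and 10 at 3.0 mm. A single C2 cell gave 15 of 42 alpha-tubulin UMIs at 1.5 mm and another 22 of 46 at 3.0 mm. With library size alone as the scale, the median gene itself differed by -1.02 log2 units, lower in photosynthetic cells.

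With length as a block, 2 of the 4 rows were called lower in photosynthetic than in C2 cells, beside 26.8% of 1180 genes called lower. TUBA6 differed by -1.23 log2 units (SE 0.37, edgeR adjusted p = 0.0080) and TUBA5 by -1.01 (SE 0.41, adjusted p = 0.045). TUBA1 differed by -0.65 (SE 0.38, adjusted p = 0.17) and TUBA3 by -0.52 (SE 0.34, adjusted p = 0.22), neither of which passed. The median difference of all genes was itself -0.43, and -0.83 over the 4 rows, so relative to the median gene TUBA6 lay at -0.80, TUBA5 at -0.58, TUBA1 at -0.22 and TUBA3 at -0.09.

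These calls depend on the method. With RLE size factors only TUBA6 was called, and 52.8% of all calls were upward against 41.8% with TMM factors. With library size alone all 4 rows were called lower, as were 54.5% of genes. DESeq2 called none of the 4 (TUBA6 -0.91, adjusted p = 0.12). TUBA5 was lost without 1.75, 2.25, 2.5, 2.75 or 3.0 mm, and TUBA6 without 2.0 mm (-0.94, adjusted p = 0.070). The 50 most abundant rows took 38.4% of UMIs in photosynthetic cells, 21.9% in C2 cells and 20.6% in remaining cells.

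Against the remaining cells the photosynthetic cells could be compared at 9 lengths, from 1.0 to 3.0 mm. TUBA6 was lower in photosynthetic cells at 9 of 9 lengths, and the remaining cells, at 282.9 ± 133.3 CPM (mean ± SD over lengths), had 2.40 times the photosynthetic mean. The levels in this paragraph are shares of all UMIs. With library size alone as the scale, the median gene itself differed by -0.76 log2 units, lower in photosynthetic cells. After thinning, TUBA6 and TUBA5 in photosynthetic cells could not be told from the gauge of free RNA. Unthinned, both were seen in a higher share of cells than that gauge. How far free RNA enters this ratio and their fitted differences was not tested. TUBA1 was lower at 8 of 9, with 667 ± 471 against 1098 ± 261.6 CPM, and TUBA5 at 8 of 9, with 188.9 ± 182.1 against 277.6 ± 87.9 CPM. TUBA3 stood at 1007.5 ± 909 against 984 ± 365.2 CPM, lower at 7 of 9.

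Here 3 of the 4 rows were called lower with edgeR, beside 20.3% of 4355 genes. The difference was -1.10 for TUBA6 (SE 0.32, adjusted p = 0.0031), -0.88 for TUBA5 (SE 0.31, adjusted p = 0.018) and -0.83 for TUBA1 (SE 0.26, adjusted p = 0.0072). TUBA3 was not called, at -0.19 (SE 0.26, adjusted p = 0.58). The median of all genes was -0.41, so that TUBA6 lay at -0.69, TUBA5 at -0.47, TUBA1 at -0.42 and TUBA3 at 0.22 relative to it. TUBA1 and TUBA6 stayed called when any 1 length was left out; TUBA5 was lost without 1.75, 2.5 or 3.0 mm (adjusted p = 0.079, 0.057 and 0.052).

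C2 cells and remaining cells did not differ in a call for any of the 4 rows over 7 lengths, beside 18.5% of 4553 genes called. The differences were -0.39 for TUBA1 (SE 0.31, adjusted p = 0.42), 0.05 for TUBA3 (SE 0.30, adjusted p = 0.93), -0.23 for TUBA5 (SE 0.32, adjusted p = 0.67) and 0.03 for TUBA6 (SE 0.31, adjusted p = 0.97). None of the 4 had an unadjusted p under 0.05 with edgeR, and DESeq2 called none.

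**Figure D3:**
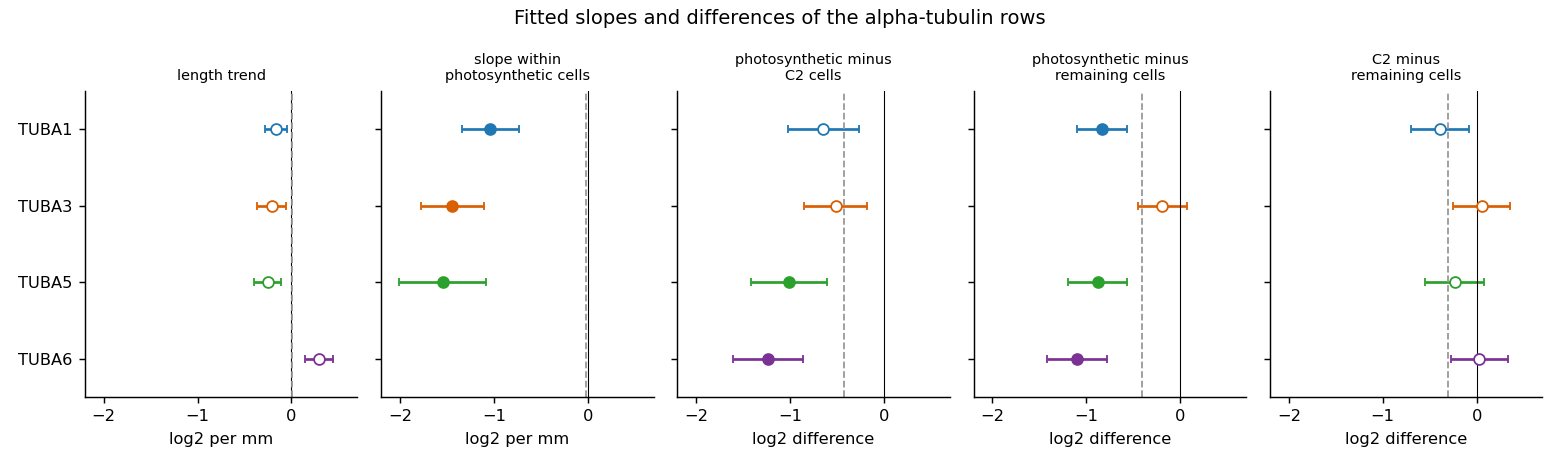
Fitted log2 slopes per mm (first 2 panels) and log2 differences between classes of cells (last 3 panels) of the 4 alpha-tubulin rows, with bars of 1 standard error; filled points passed a false discovery rate of 0.05 over all genes tested, and the dashed line is the median of all genes. Every filled point lies below 0, and TUBA3 is filled in the panel of slopes within photosynthetic cells but in none of the class differences. TUBA6 has no point in the second panel because it did not pass the filter on low counts.

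Other genes moved between these classes as well. Of the cytoskeleton list, 3 rows were tested between photosynthetic and C2 cells, and 2 were lower: the profilin PRO4 (-1.14, SE 0.31, adjusted p = 0.0042) and the actin-depolymerizing factor ADF3 (-0.88, SE 0.32, adjusted p = 0.027). PRO5 was at -0.82 (adjusted p = 0.060). The median of the 3 was -0.88, and 26.8% of all genes were called lower. Against remaining cells 1 of 6 tested rows was called, near the 20.3% of all genes called lower: PRO5, lower by -0.72 (SE 0.29, adjusted p = 0.039), and the median of the 6 was -0.68. Between C2 and remaining cells 0 of 4 tested rows were called by edgeR, beside 18.5% of all genes.

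Dividing-cell genes differed between the classes too, so they are given beside the alpha-tubulin values. Their summed level at 1.5 to 3.0 mm was 502.5 CPM in photosynthetic cells (173.7 to 1796 over lengths), 244.3 CPM in C2 cells (149.3 to 674) and 666 CPM in remaining cells (359.1 to 1170.1). C2 cells thus had the lowest level of the dividing list and alpha-tubulin levels near or above those of the remaining cells. HMGIY2 was the only row of that list tested between photosynthetic and C2 cells, and was higher in photosynthetic cells by 1.29 (SE 0.35, adjusted p = 0.0038). In C2 cells HMGIY2 (-1.51) and DMT105 (-2.67) were called lower than in remaining cells, with FEN1 and MAD2 not tested. In photosynthetic against remaining cells DMT105 was called lower (-1.07, SE 0.45, adjusted p = 0.0496), the same direction as alpha-tubulin, while HMGIY2 (-0.09) and ROA2 (-0.26) were not called. The part of cell division in the alpha-tubulin differences was not tested.

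**Figure D4:**
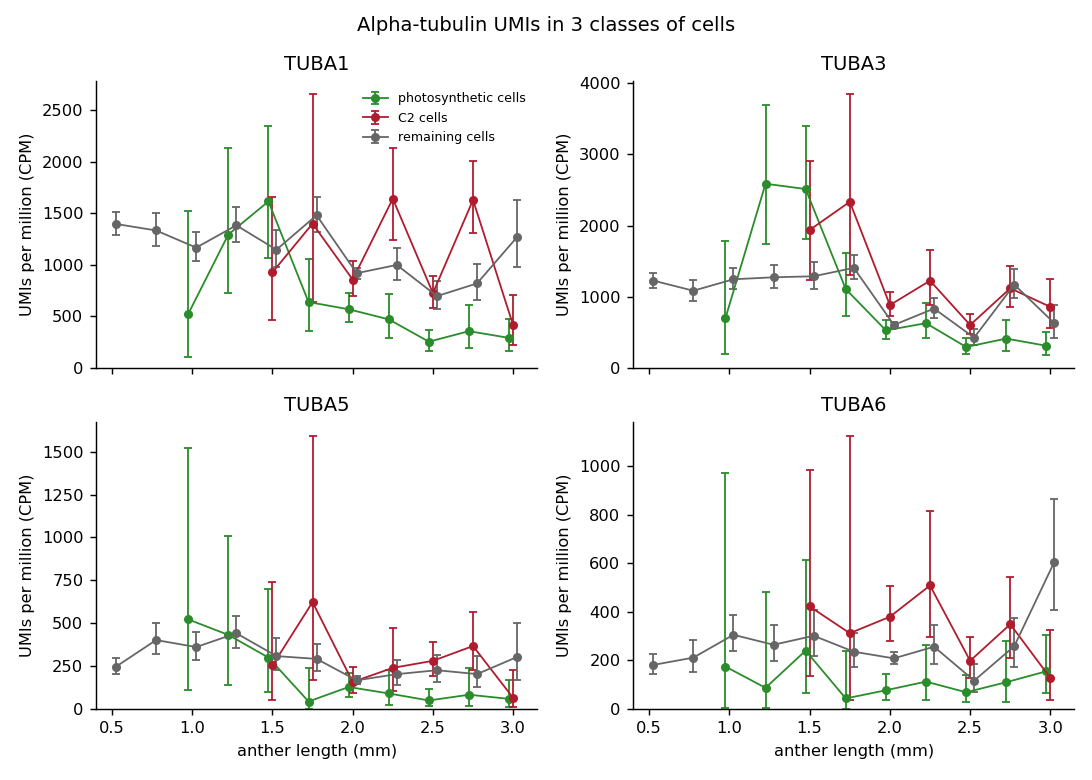
CPM (linear axes from 0) of each alpha-tubulin row by anther length in mm in photosynthetic, C2 and remaining cells, for lengths with at least 5 cells of the class, with exact Poisson 95% intervals. From 1.75 mm photosynthetic cells lie below C2 cells in every panel, apart from TUBA6 at 3.0 mm, and at 1.25 and 1.5 mm they lie above remaining cells for TUBA3.

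Within photosynthetic cells alpha-tubulin was higher in short anthers. The sum over the 4 rows was 1913 CPM at 1.0 mm, 4401 at 1.25 mm, 4669 at 1.5 mm, 1829 at 1.75 mm, 1297 at 2.0 mm, 1297.5 at 2.25 mm, 662 at 2.5 mm, 957 at 2.75 mm and 811 at 3.0 mm. TUBA3 led at the peak, with 2589 CPM at 1.25 mm and 2514 CPM at 1.5 mm, and was at 291.9 to 410.1 CPM from 2.5 mm. TUBA1 was at 1294 and 1616 CPM at the same 2 short lengths and at 355.4 CPM or less from 2.5 mm.

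Of the 4 rows 3 passed the filter and all 3 had a falling slope that was called, beside 10.9% of 441 genes called downward. On the log2 scale the slope per mm was -1.44 for TUBA3 (SE 0.34, edgeR adjusted p = 0.012), -1.04 for TUBA1 (SE 0.30, adjusted p = 0.028) and -1.55 for TUBA5 (SE 0.46, adjusted p = 0.030). The median slope of all genes tested was -0.02. TUBA6, with 1 to 9 UMIs per length, was not tested.

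The fall rested on few cells at the short end. There were 8 photosynthetic cells at 1.25 mm and 1 of them gave 28 of the 51 alpha-tubulin UMIs; of 14 cells at 1.5 mm, 1 gave 36 of 78. Without 1.25 mm none of the 3 calls held (TUBA3 -1.14, adjusted p = 0.080). Without 1.5 mm TUBA1 was at -0.77 (adjusted p = 0.089) and without 2.75 mm at -0.88 (adjusted p = 0.0998). TUBA5 passed the filter in 3 of the 9 fits that left out a length, and its call held in 1 of these 3; without 2.75 mm its adjusted p was 0.064. With every cell given the same weight, a setting added after the values were seen, TUBA3 was called (-1.21, adjusted p = 0.016) and TUBA1 was not (-0.83, adjusted p = 0.064). The dividing list fell in the same cells, from 1913 CPM at 1.0 mm to 173.7 CPM at 3.0 mm, and HMGIY2 had a slope of -1.73 (adjusted p = 0.0023).

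Within C2 cells no row was called, beside 1.56% of 514 genes. The sum over the 4 rows was 3539, 4668.5, 2274, 3614, 1803.5, 3463 and 1458 CPM from 1.5 to 3.0 mm. TUBA3 had a slope of -0.66 (SE 0.40, adjusted p = 0.71), TUBA6 of -0.68 (SE 0.46, adjusted p = 0.75) and TUBA1 of -0.13 (SE 0.50, adjusted p = 0.98). None had an unadjusted p under 0.05, and TUBA5 was not tested.

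The slopes of the 2 classes were not shown to differ. The difference between them over the 7 shared lengths was -1.38 for TUBA1 (SE 0.70), -1.18 for TUBA3 (SE 0.60), -0.95 for TUBA5 (SE 0.91) and 0.86 for TUBA6 (SE 0.82), with edgeR adjusted p-values of 0.91, 0.91, 0.99 and 0.99. No gene of 881 was called (0.0%), while 44 had an unadjusted p under 0.05, and DESeq2 called 0.

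A last measure did not depend on any scale, namely the share of TUBA3 in the UMIs of TUBA1 plus TUBA3. Over 1.5 to 3.0 mm it was 54.3% (exact binomial 95% interval 49.3 to 59.3%) in photosynthetic cells, 48.5% (44.7 to 52.2%) in C2 cells and 43.7% (42.0 to 45.3%) in remaining cells. Length by length it was higher in photosynthetic than in remaining cells at 8 of 9 lengths, with a mean of 56.9 ± 5.94% against 46.2 ± 8.15% (SD over lengths); the exception was 2.75 mm. Between photosynthetic and C2 cells it was higher at 4 of 7 lengths, with means of 55.5 ± 5.35% and 53.9 ± 11.8%. A single photosynthetic cell gave 28 of 51 alpha-tubulin UMIs at 1.25 mm and another 36 of 78 at 1.5 mm. The photosynthetic share at 1.0 mm rested on 7 UMIs. After thinning, TUBA1 was seen in more cells than TUBA3, both in photosynthetic (22.8% against 20.1%) and in remaining cells (36.2% against 31.3%). The share of TUBA3 was looked at after the levels were known and is given without a test.

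**Figure D5:**
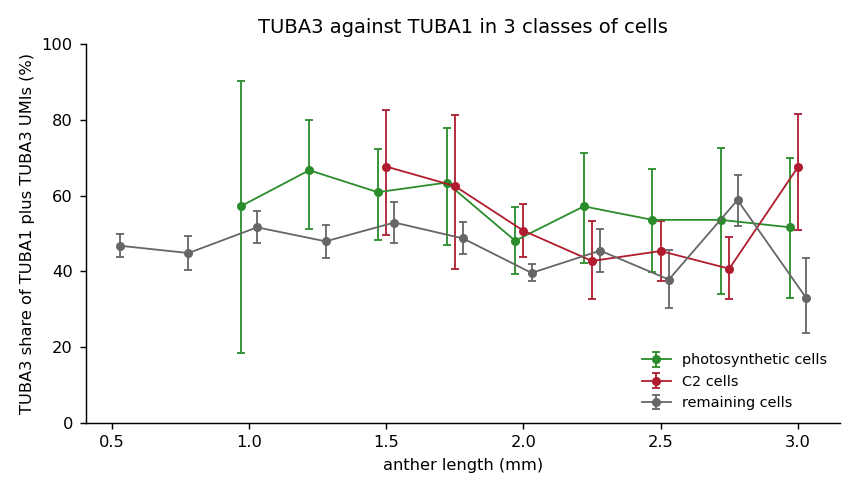
Share of TUBA3 among the UMIs of TUBA1 plus TUBA3 (%, axis from 0 to 100) by anther length in mm in photosynthetic, C2 and remaining cells, with exact binomial 95% intervals. Photosynthetic cells lie above remaining cells at 8 of 9 lengths, while C2 cells run from 40.7% at 2.75 mm to 67.6% at 1.5 mm. A single photosynthetic cell gave 28 of 51 alpha-tubulin UMIs at 1.25 mm and another 36 of 78 at 1.5 mm.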

How the data were processed

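The values deposited by the authors are raw UMI counts in a single table of 22173 rows by 2182 cells, and a cell is a sample. Per the submitters' processing notes, HISAT2 and build B73 RefGen_v4 were used; the counting tool and its treatment of shared reads were not given in the labels. Totals ran from 251 to 50159 UMIs per cell, and the 1658 cells with at least 500 were kept. Length, set, set number and well came from the cell titles. No cells were removed as doublets. The alpha-tubulin rows and all lists were chosen with earlier results of these data known.

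Raw counts were summed per length, or per class and length with at least 5 cells, and fitted on the whole table in R 4.3.3 by the quasi-likelihood F-test of edgeR 4.0.16, after filterByExpr and TMM scaling, at a Benjamini-Hochberg false discovery rate of 0.05. Standard errors were taken from the estimate and its F statistic. In the comparisons with remaining cells the p-values equal those of a normal distribution, so they rest on variance shared over all genes. RBCS, CAB1 and C2 chose the classes and were left out of the counts of genes called between them. The script was tested on simulated data. Named were all rows beginning with TUBA and a digit, the cytoskeleton and dividing-cell lists picked by symbol, and the 3 rows most like the alpha-tubulin sum over pools, with the 3 least alike added after their values were seen.

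Alternatives were RLE factors, library size alone, no filter on low counts, DESeq2 1.42.0, each length left out, other cell minimums, equal weight per cell, no plastid-encoded rows, no clusters with recurring wells (scanpy 1.11.5, 9.17% of cells), other class thresholds, and set or set and number in the model. Gene names came from a table of another assembly, so no coordinates are given. Intervals on CPM are exact Poisson, those on shares exact binomial, both at 95%.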

Additional observations from a re-analysis of the deposited data

Results flagged for a closer look

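Pool 2 of set 3.29.22 at 3.0 mm lay far above the other 3 pools of that length for 2 rows. TUBA1 was at 1491 CPM in it against 365.5 to 457.5 CPM in the others, and TUBA6 at 619 CPM against 169.3 to 215.3 CPM. Both were found by the gap of the highest pool to the next, 0.918 and 0.898 of the whole range, among 36 groups of 4 to 6 pools looked at; chance alone flags about 1 group in 20. This pool had 27 cells with a median of 1097 UMIs, of which 9 were photosynthetic, 2 were C2 cells and 16 remaining cells. Its dividing-cell list stood at 393.8 CPM, against 42.3 to 511 CPM in the other 3 pools, and a single cell gave 33 of its alpha-tubulin UMIs, 31.1%. In pool 10 of set 8.18.21 at the same length a single cell gave 22 of 43. The part of these values in the difference was not tested.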

How the results depend on the processing

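For the length trend, where no row was called, library size alone called 2, and leaving out each length gave 0 to 1 (TUBA6 without 2.5 mm, slope 0.39, adjusted p = 0.036). A replicate block of set with number called none (TUBA1 -0.25, TUBA3 -0.32, TUBA5 -0.49, TUBA6 0.35), though calls over all genes fell from 30.2% to 4.05%; the labels do not say what the number stands for, so it is no pairing by design. Set and length together as a replicate block changed no other count of calls. Curvature stayed at 0 in every setting run.

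Between photosynthetic and C2 cells, with 2 rows called, library size alone called 4. Both no filter on low counts and DESeq2 called 0. RLE factors, equal weight per cell, no plastid-encoded rows, no clusters with recurring wells and halved class thresholds each called 1; leaving out lengths gave 1 to 2, with both calls kept in 1 of 7. With doubled thresholds the 2 called rows were TUBA1 and TUBA3. Against remaining cells the range without single lengths was 2 to 3. Within photosynthetic cells, with 3 called, no filter and doubled thresholds called 0, equal weight 1, and leaving out lengths 0 to 3. The cause was not tested.

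Signs reversed for 16 values, none called as reported or where reversed: between photosynthetic and C2 cells TUBA3 was 0.001 with halved thresholds, though called with library size alone (-1.14, adjusted p = 0.0072). Between C2 and remaining cells TUBA5 was 0.01 by library size, 0.064 with halved thresholds, 0.054 with the set and length block, 0.16 with equal weight, 0.008 without pool 2 of set 3.29.22, and from -0.29 to 0.10 without single lengths; TUBA3 was -0.026 and TUBA6 -0.044 without the filter; TUBA6 was -0.067 without recurring wells and -0.045 to 0.48 without single lengths. Within C2 cells TUBA1 was 0.42 without the filter and -0.47 to 0.52 without single lengths. The slope difference was 0.25 for TUBA1 with doubled thresholds and 0.10 for TUBA3 with equal weight.

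Depth limits TUBA5 and TUBA6 most, with 1 to 15 UMIs of TUBA5 and 1 to 9 of TUBA6 per length in photosynthetic cells.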
